A study of Caenorhabditis elegans with 21 samples.

Results

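Cantharidin was compared with fluphenazine in whole nematodes, as 3 libraries against 3 of the 21 RNA-seq libraries of the series. The members are the 6 libraries labelled with these drugs, and the genes are the 17492 of 46254 listed IDs that reached 1 FPKM in at least 3 of the 21 libraries. FPKM counts fragments per kilobase of transcript, scaled to the mapped fragments of the library. All worms were wild-type Caenorhabditis elegans N2, raised at 20 °C with OP50 bacteria as food and harvested as day 1 adults. Cantharidin (libraries 1, 3 and 9) and fluphenazine (libraries 2, 4 and 9) were each given at 200 µM in plates from the last larval stage, L4, until the next day. Untreated worms (control libraries 4, 6 and 7) are shown as a level of reference. The labels name no vehicle and no number of worms per library, and nothing says that libraries of a group came from separate cultures. The p-values therefore measure the spread between these libraries, which may be technical. The same concentration is not a matched effect, and only 1 concentration and 1 time were measured per drug.

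Cantharidin is a terpenoid toxin of blister beetles that inhibits the serine/threonine phosphatases PP2A and PP1. Fluphenazine is a phenothiazine antipsychotic that blocks dopamine receptors in vertebrates and also binds calmodulin. Nematodes take up such compounds mainly through the gut, where cytochrome P450 enzymes oxidise foreign molecules, transferases attach sugar or glutathione to them, and ABC transporters export them. Worms also answer damage with antimicrobial peptides of the epidermis, infection response genes and chaperones, which assist protein folding. The comparison asks which of these programmes differ between the drugs.

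The values of a gene are given below in the order cantharidin 1, 3 and 9, then fluphenazine 2, 4 and 9, then control 4, 6 and 7. Differences are cantharidin minus fluphenazine on the log2(FPKM + 1) scale, with their standard error (SE, n = 3 libraries a group) and the Benjamini-Hochberg adjusted p of a limma fit over all 21 libraries. This scale understates the differences of genes with low FPKM. Genes with an adjusted p below 0.05 are termed called.

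Fluphenazine 4 stood apart from the other 2 fluphenazine libraries. Its mean correlation of log2 levels was 0.891 with its own group, 0.921 with the cantharidin libraries and 0.932 with the controls, while the cantharidin libraries correlated at 0.959 to 0.968 with their own group. The relative depth of the 6 libraries, estimated from the steps between low values, lay between 0.943 and 1.2 times that of control 4. Counts of calls are therefore given with it and, in brackets or beside them, without it.

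Of the 17492 genes, 1354 (7.74%) were called between the drugs, 697 higher in cantharidin (3.98%) and 657 lower (3.76%). Of the called genes, 413 were at least 2-fold higher and 284 at least 2-fold lower. Without fluphenazine 4 the count was 2776 (15.9%), with 1372 higher (7.84%) and 1404 lower (8.03%), and 1212 genes were called in the same direction in both fits. Whichever of the 6 libraries was left out, 765 genes kept their call, 428 of them higher and 337 lower. With the spread estimated from the 6 libraries alone, 374 genes were called, of which 357 were also called in the fit of all libraries. That count was 1288 without fluphenazine 4, with 555 higher and 733 lower. The 3 and 3 libraries did not overlap in 3119 genes (17.8%), of which 1677 were higher in cantharidin (9.59%) and 1442 lower (8.24%). The median difference over all genes was 0.05 and was -0.03 without fluphenazine 4, so the median gene stood at nearly the same level in both drugs. Against the controls the median gene was 0.34 higher in both drug groups, and 0.05 and 0.04 higher after median-of-ratios scaling. Of the genes called against control (6628 for cantharidin, 37.9%, and 7658 for fluphenazine, 43.8%), 84.3% and 78.5% were higher, but 50.3% and 46.4% after that scaling. As shares of all genes tested, 31.9% were higher and 5.96% lower in cantharidin, and 34.4% higher and 9.39% lower in fluphenazine. Control 7 also stood apart from controls 4 and 6 in the cuticle collagens, at 1.19 against -0.58 and -0.61 log2 units from the control mean. Levels in the controls are therefore given as a reference and small changes from them are not read.

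**Figure D1:**
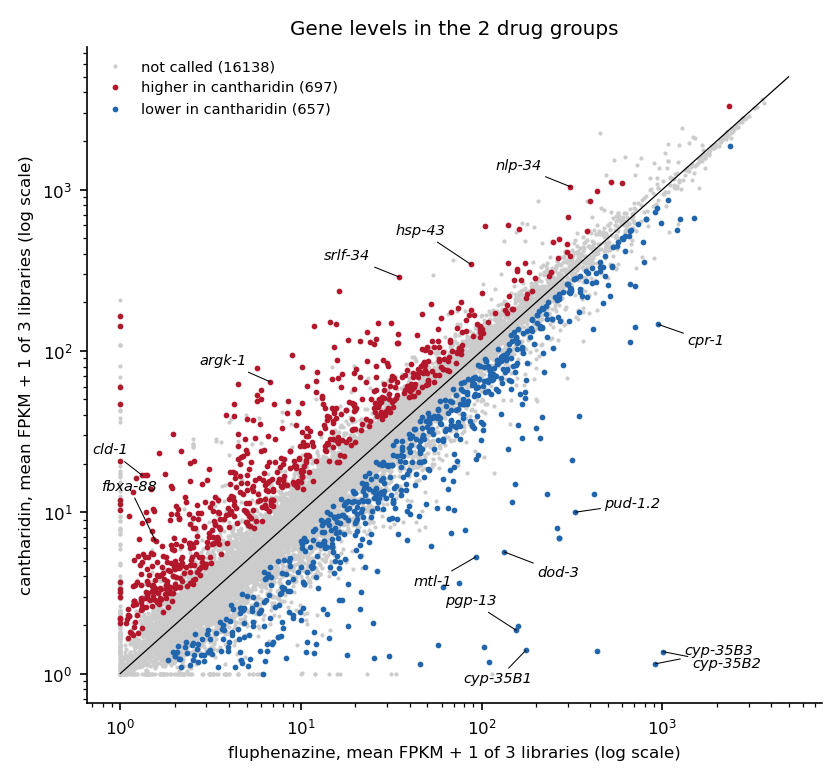
Mean FPKM + 1 of each of the 17492 genes in fluphenazine (x axis) and cantharidin (y axis), both on log scales, with the line of equal levels. The 697 genes called higher in cantharidin are red and the 657 called lower are blue; the cyp-35B genes lie at the lower right, with cyp-35B2 at 959 to 1038 FPKM in fluphenazine and 0.302 to 0.44 FPKM in cantharidin. Points on the left edge are listed at 0 FPKM in fluphenazine.

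Among genes with a family name, the largest single differences between the drugs were in the cytochrome P450 family 35, whose genes are used as markers of exposure to foreign chemicals in C. elegans. Of 10 tested members 7 were lower in cantharidin and 0 higher, with and without fluphenazine 4, and the median difference was -2.30. That is 70% lower, against 3.76% of all genes (8.03% without fluphenazine 4). For cyp-35B3 the levels were 0.331, 0 and 0.115 FPKM in cantharidin, 1008, 743 and 991 in fluphenazine, and 0.216, 0.274 and 0.158 in control. The difference was -9.63 (SE 0.14, limma adjusted p = 2.3e-17). The gene was near 0 in every cantharidin and control library and among the most abundant transcripts under fluphenazine. cyp-35B2 stood at 0.361, 0.302 and 0.44 FPKM in cantharidin, 1038, 959 and 1022 in fluphenazine and 0.31, 0.299 and 0.453 in control, a difference of -9.53 (SE 0.11, limma adjusted p = 9.5e-19). cyp-35B1 stood at 0.287, 0.549 and 0.35 FPKM in cantharidin, 195, 120.2 and 209 in fluphenazine and 0.329, 0.307 and 0.138 in control, a difference of -6.94 (SE 0.28, limma adjusted p = 7.6e-11). cyp-35A1 stood at 0.0508, 0.097 and 0.371 FPKM in cantharidin, 143, 48 and 133 in fluphenazine and 0.0582, 0.126 and 0 in control, a difference of -6.40 (SE 0.27, limma adjusted p = 1.7e-10). In these 4 genes the cantharidin libraries lay near the level of the controls, and fluphenazine 4 was the lowest of the fluphenazine libraries, yet far above all others. In the 12 libraries of the other treatments cyp-35B3 reached at most 0.325 FPKM, cyp-35B2 0.561, cyp-35A1 0.155 and cyp-35B1 3.28. The copies of the family are similar in sequence, and how fragments shared between copies were divided was not tested.

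The other members of the family differed from this pattern. cyp-35A5 was at 0.802, 0.384 and 0.489 FPKM in cantharidin, 11.5, 7.61 and 10.4 in fluphenazine, and 11.4, 5.66 and 2.09 in control, a difference of -2.79 (SE 0.34, limma adjusted p = 4.8e-05). cyp-35A2 was at 18.6, 21.9 and 18.8 FPKM in cantharidin, 68.4, 86.6 and 61.5 in fluphenazine and 94.7, 61.0 and 23 in control, a difference of -1.80 (SE 0.44, limma adjusted p = 0.016). cyp-35C1 was at 9.57, 8.36 and 11 FPKM in cantharidin, 25.4, 24 and 26.9 in fluphenazine and 51, 21.6 and 12.48 in control, a difference of -1.32 (SE 0.38, limma adjusted p = 0.043). In these 3 genes the fluphenazine libraries lay within or near the wide range of the controls and the cantharidin libraries lay below the lowest control. The calls of cyp-35A2 and cyp-35C1 were lost without cantharidin 1 or without cantharidin 9, and that of cyp-35C1 also without cantharidin 3, fluphenazine 2 or fluphenazine 9, at a pseudocount of 0.1 and with no filter on low values. cyp-35A4 (-0.54, SE 0.25), cyp-35A3 (-0.39, SE 0.36) and cyp-35D1 (0.56, SE 0.36) were not called, with limma adjusted p of 0.28, 0.67 and 0.50.

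Of 55 other P450 genes tested, 16 were lower and 5 higher (22 and 4 without fluphenazine 4), and 34 were not called. Their called share was 38.2%, against 7.74% of all genes. Their median difference was -0.23, against 0.05 over all genes, and -0.37 without fluphenazine 4, against -0.03. cyp-33C6 was at 1.18, 0.835 and 0.877 FPKM in cantharidin, 180.3, 122.9 and 174 in fluphenazine and 0.118, 0.256 and 0.0574 in control, a difference of -6.33 (SE 0.16, limma adjusted p = 6.1e-14). cyp-33C5 (-4.33, SE 0.21), cyp-34A7 (-2.96, SE 0.17) and cyp-34A9 (-2.54, SE 0.32) followed, with limma adjusted p of 1.1e-09, 9.0e-09 and 6.3e-05. In the other direction cyp-36A1 was at 19, 25.0 and 20.0 FPKM in cantharidin, 11.8, 9.69 and 8.58 in fluphenazine and 6.30, 6.70 and 5.37 in control, a difference of 1.02 (SE 0.21, limma adjusted p = 0.0048).

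2 further genes without a family name, chosen after their values were seen, had the same pattern as the cyp-35B genes. C01G12.5 was at 0.379, 0.180 and 0.573 FPKM in cantharidin, 489.9, 349 and 457 in fluphenazine and 0.108, 0.235 and 0.106 in control (difference -8.29, SE 0.15, limma adjusted p = 5.5e-16). R05D8.9 was at 0.188, 0.714 and 0.454 FPKM in cantharidin, 131, 68.5 and 109 in fluphenazine and 0.107, 0.0778 and 0.209 in control (difference -6.12, SE 0.20, limma adjusted p = 2.5e-12). Both stayed near 0 in all cantharidin and control libraries.

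Among the transporters, the P-glycoprotein gene pgp-13 set the drugs apart most. Its levels were 1.115, 0.702 and 0.741 FPKM in cantharidin, 182, 96.6 and 185 in fluphenazine, and 1.32, 1.02 and 1.09 in control, a difference of -6.34 (SE 0.19, limma adjusted p = 1.6e-12). The cantharidin libraries were at or below the lowest control in 2 of 3 cases, and the highest level in the other treatments was 1.65 FPKM. The ABC transporters as a list were divided, with 6 of 51 higher and 4 lower, 19.6% called against 7.74% of all genes. Without fluphenazine 4 there were 9 higher and 6 lower, where 15.9% of all genes were called. The median of the list was 0.16 and became -0.02 without that library. haf-7, a half-molecule transporter, was at 45.4, 32.1 and 51.8 FPKM in cantharidin, 14.1, 10.8 and 16.51 in fluphenazine and 5.42, 6.56 and 6.66 in control (difference 1.57, SE 0.21, limma adjusted p = 1.2e-04). pgp-9 was at 31.1, 27.6 and 27.6 FPKM in cantharidin, 12, 7.69 and 10.1 in fluphenazine and 7.97, 7.21 and 16 in control (difference 1.47, SE 0.23, limma adjusted p = 5.0e-04). The P-glycoprotein gene pgp-14 went the other way, with a difference of -1.69 (SE 0.32, limma adjusted p = 0.0024).

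The conjugating enzymes were divided as well. Of 64 UDP-glucuronosyltransferases, which attach sugar to foreign molecules, 17 were lower in cantharidin and 8 higher (22 and 6 without fluphenazine 4), a called share of 39.1% against 7.74% of all genes. ugt-44 was at 150.4, 122.6 and 168 FPKM in cantharidin, 26.1, 24.4 and 27.1 in fluphenazine and 11.6, 27.5 and 23.9 in control, a difference of 2.45 (SE 0.30, limma adjusted p = 5.9e-05). ugt-32 was at 10.5, 6.87 and 12.4 FPKM in cantharidin against 1.30, 0.636 and 1.15 in fluphenazine, a difference of 2.41 (SE 0.24, limma adjusted p = 4.8e-06). Under fluphenazine ugt-44 lay within the control range and ugt-32 below it, and under cantharidin both lay above it. ugt-36 was at 2.59, 5.03 and 3.05 FPKM in cantharidin, 22.9, 15.8 and 25.9 in fluphenazine and 0.301, 0.218 and 0.734 in control (difference -2.31, SE 0.21, limma adjusted p = 2.7e-06). With the spread of the 6 libraries alone, 3 UDP-glucuronosyltransferases were called lower and 3 higher. Of 49 glutathione S-transferases 6 were lower and 4 higher (8 and 5 without fluphenazine 4), with a median of -0.04 (-0.145). Their called share was 20.4%, against 7.74% of all genes. gst-38 was 2.38 higher (SE 0.31, limma adjusted p = 8.8e-05) and gst-5 differed by -1.43 (SE 0.19, limma adjusted p = 1.3e-04). gst-4, a widely used reporter of the antioxidant factor SKN-1, was not called, at 30.2, 38.3 and 25.0 FPKM in cantharidin and 30.8, 19.4 and 32 in fluphenazine.

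Metal response genes took opposite sides. The metallothionein gene mtl-1 was at 4.21, 6.33 and 2.28 FPKM in cantharidin, 141, 54.1 and 79.0 in fluphenazine and 2.2, 0 and 0.716 in control, a difference of -4.10 (SE 0.48, limma adjusted p = 3.5e-05). mtl-2 was at 38.5, 44.9 and 29.5 FPKM in cantharidin, 169, 289 and 189 in fluphenazine and 204, 199 and 129 in control, a difference of -2.47 (SE 0.30, limma adjusted p = 4.2e-05). The 2 metallothioneins thus reached the same order between the drugs from different control levels. The cadmium response gene cdr-1 was also lower (-2.05, SE 0.26, limma adjusted p = 8.0e-05). numr-1, a metal response gene of the nucleus, is listed under 2 IDs of near-identical copies whose fragments cannot be assigned with certainty. WBGene00017270 was at 33.8, 21.2 and 41.1 FPKM in cantharidin, 7.31, 9.25 and 4.04 in fluphenazine and 1.61, 1.21 and 1.26 in control (difference 2.08, SE 0.32, limma adjusted p = 3.8e-04). WBGene00017267 was 1.56 higher (SE 0.32, limma adjusted p = 0.0044). Of the 17 tested metal and osmotic genes 6 were lower and 3 higher (6 and 2 without fluphenazine 4), 52.9% called against 7.74% of all genes.

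**Figure D2:**
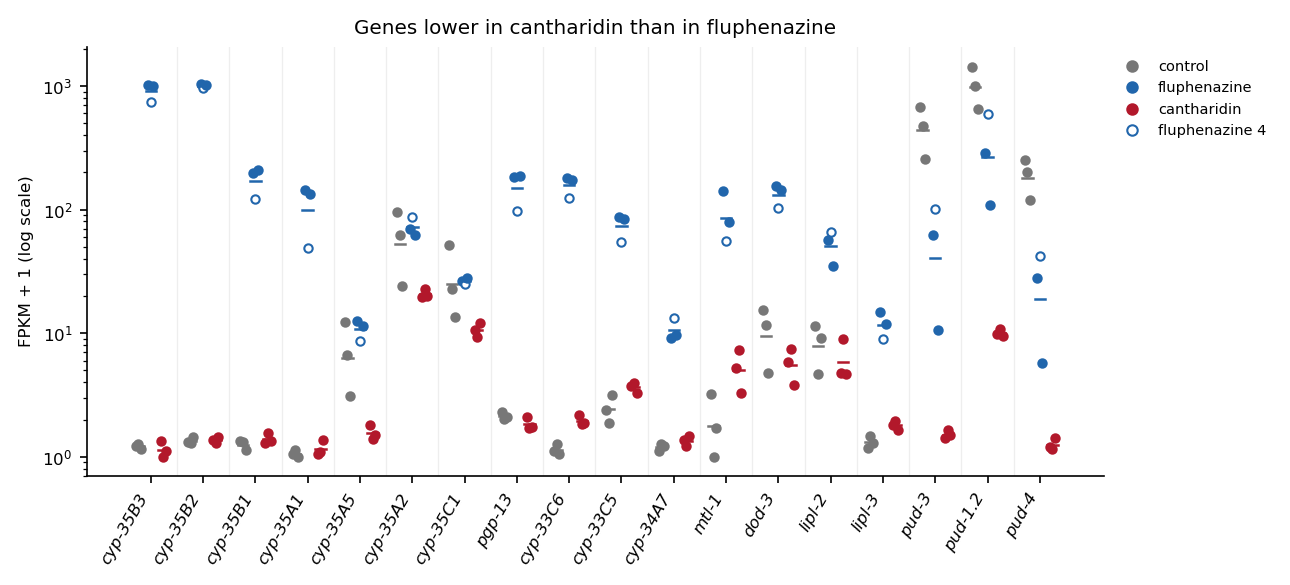
FPKM + 1 (log scale) of 18 genes lower in cantharidin than in fluphenazine, with 1 point a library and a bar at the mean of log2(FPKM + 1) of each group of 3. The cyp-35B genes, cyp-35A1 and pgp-13 are near the control level in cantharidin, while the pud genes lie below the controls in both drugs and lowest in cantharidin.

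The pud genes, first described as proteins raised in mutants of the insulin receptor daf-2, were lower in cantharidin than in fluphenazine. All 6 listed IDs were called lower, with and without fluphenazine 4 and whichever of the 6 libraries was left out, and the median difference was -4.74 (-4.13 without fluphenazine 4). The mean level of the list, in log2 units from the control mean, was -7.29, -7.17 and -7.06 in cantharidin and -2.2, -1.31 and -3.94 in fluphenazine. Levels as low were also seen with the proteasome inhibitor bortezomib, at -7.18, -7.16 and -7.24 in the 3 libraries of the 10 µM group. pud-1.2 was at 8.83, 9.77 and 8.41 FPKM in cantharidin, 287, 593 and 108 in fluphenazine and 1434, 1001 and 651 in control, a difference of -4.73 (SE 0.62, limma adjusted p = 1.0e-04). pud-3 was at 0.406, 0.642 and 0.489 FPKM in cantharidin, 60.8, 99.5 and 9.58 in fluphenazine and 680.2, 477 and 256 in control, a difference of -4.74 (SE 0.68, limma adjusted p = 2.3e-04). pud-4 was at 0.195, 0.163 and 0.413 FPKM in cantharidin, 26.9, 41.2 and 4.76 in fluphenazine and 250.1, 199 and 117 in control, a difference of -3.92 (SE 0.55, limma adjusted p = 2.0e-04). In these genes every fluphenazine library lay below the lowest control and above the highest cantharidin library. The fluphenazine libraries spread widely, with fluphenazine 4 the highest and fluphenazine 9 the lowest. pud-1.1 differed by -4.71 (SE 0.64) and the 2 IDs named pud-2.2 both by -5.02 (SE 0.62). The 2 pud-2.2 IDs differed by at most 1.47% in any library, so they are read as 1 measurement. With the spread of the 6 libraries alone, 4 of the 6 IDs were called.

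Other genes of the insulin pathway and its reporters were divided, with 4 of 29 lower and 2 higher (5 and 3 without fluphenazine 4). Their called share was 20.7%, against 7.74% of all genes. dod-3 was at 4.83, 6.42 and 2.78 FPKM in cantharidin, 153, 101 and 142 in fluphenazine and 14.5, 10.6 and 3.78 in control, a difference of -4.58 (SE 0.44, limma adjusted p = 3.6e-06). lea-1, a late embryogenesis abundant protein gene linked to desiccation, was at 221, 226 and 206 FPKM in cantharidin, 552, 579 and 410.1 in fluphenazine and 92.4, 97.7 and 97.4 in control (difference -1.22, SE 0.13, limma adjusted p = 1.4e-05). dod-21 went the other way and is described below. daf-16, the FOXO factor of the pathway, was not called, at 109, 116 and 122 FPKM in cantharidin and 121, 122 and 130.3 in fluphenazine.

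Genes of gut digestion and fat metabolism were lower in cantharidin more often than higher. Of 37 fasting lipases and their partners 10 were lower and 0 higher (14 and 0 without fluphenazine 4), with a median of -0.37 (-0.56). That is 27% lower, against 3.76% of all genes. The lysosomal lipase gene lipl-3 was at 0.795, 0.962 and 0.646 FPKM in cantharidin, 13.8, 7.90 and 10.9 in fluphenazine and 0.182, 0.484 and 0.296 in control, a difference of -2.69 (SE 0.16, limma adjusted p = 1.8e-08). lipl-2 was at 3.76, 8.0 and 3.67 FPKM in cantharidin, 55.6, 65.3 and 33.9 in fluphenazine and 10.4, 3.70 and 8.12 in control, a difference of -3.12 (SE 0.31, limma adjusted p = 5.4e-06). Both lipases were at the control level or little above it in cantharidin. lipl-5 (-1.59, SE 0.29) and pck-1, the phosphoenolpyruvate carboxykinase gene of glucose synthesis (-1.27, SE 0.21), were called at limma adjusted p of 0.0019 and 7.2e-04. The glyoxylate cycle gene icl-1 was at 303, 328 and 237 FPKM in cantharidin, 498, 477 and 459 in fluphenazine and 69.6, 66.3 and 119.8 in control (difference -0.73, SE 0.20, limma adjusted p = 0.032). The call of icl-1 was lost without cantharidin 1 or 9, without fluphenazine 2 or 9, and under quantile normalization. acs-2, a fatty acid activating enzyme, was not called (-0.97, SE 0.34, limma adjusted p = 0.11), at 115.2, 195 and 124 FPKM in cantharidin, 321, 194 and 337 in fluphenazine and 6.22, 6.11 and 17.6 in control. It was called without fluphenazine 4 (-1.22, limma adjusted p = 0.036).

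Several enzymes that make polyunsaturated fatty acids were lower in cantharidin. Of 31 desaturases, elongases and their partners 6 were lower and 0 higher (6 and 1 without fluphenazine 4), with a median of -0.04 (-0.235). That is 19.4% lower, against 3.76% of all genes. Each of the 6 genes kept its call whichever of the 6 libraries was left out. fat-2, the delta-12 desaturase, was at 586, 558 and 542 FPKM in cantharidin, 1041, 1507 and 1069 in fluphenazine and 479, 511 and 536 in control, a difference of -1.08 (SE 0.15, limma adjusted p = 1.3e-04). fat-3 was -1.0 (SE 0.16), fat-4 -0.97 (SE 0.12), fat-1 -0.67 (SE 0.10) and elo-1 -0.46 (SE 0.08), with limma adjusted p between 4.2e-05 and 0.0011. The stearoyl desaturase gene fat-7 was low in both drugs, at 1.26, 0.253 and 0.161 FPKM in cantharidin, 0.691, 3.70 and 0.658 in fluphenazine and 58.5, 58.9 and 46.3 in control. Its difference between the drugs was not called (-0.67, SE 0.34, limma adjusted p = 0.33).

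The list of peroxisomal and mitochondrial beta-oxidation genes held members of both directions. In peroxisomes this process shortens very long fatty acids and makes pheromone side chains. ech-9, an enoyl-CoA hydratase family gene, was at 61.0, 47.4 and 70.2 FPKM in cantharidin, 8.94, 4.99 and 15.5 in fluphenazine and 1.13, 1.38 and 1.00 in control, a difference of 2.59 (SE 0.26, limma adjusted p = 7.0e-06). The acyl-CoA oxidase gene acox-1.5 was at 83.7, 82.2 and 92.2 FPKM in cantharidin, 21.6, 12.7 and 32.3 in fluphenazine and 12.4, 18 and 30.8 in control, a difference of 2.0 (SE 0.33, limma adjusted p = 8.0e-04). Its relative acox-1.4 was -1.86 (SE 0.38, limma adjusted p = 0.0048). Of the 35 genes of the list 2 were higher and 2 lower, 11.4% called against 7.74% of all genes, and 3 were higher and 6 lower without fluphenazine 4.

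Of 25 cathepsin and aspartyl protease genes, which digest protein in the gut and the lysosome, 6 were lower and 2 higher (10 and 1 without fluphenazine 4), and 17 were not called. Their called share was 32%, against 7.74% of all genes. cpr-1, a gut cathepsin B gene, was at 147, 193 and 94.4 FPKM in cantharidin, 806, 1419 and 628 in fluphenazine and 162, 126 and 131 in control, a difference of -2.68 (SE 0.30, limma adjusted p = 1.8e-05). cpr-6 (-1.38, SE 0.29) and cpz-1 (-1.23, SE 0.22) were called at limma adjusted p of 0.0053 and 0.0019. The gut esterase gene ges-1 was at 13.8, 14.2 and 13.3 FPKM in cantharidin, 44.2, 33.4 and 48.1 in fluphenazine and 15.3, 16.4 and 19.6 in control (difference -1.52, SE 0.21, limma adjusted p = 1.2e-04). Of 22 intestine markers 7 were lower and 1 higher, with and without fluphenazine 4. The called share of the 22 was 36.4%, against 7.74% of all genes (15.9% without fluphenazine 4). The 7 include mtl-1, mtl-2 and cpr-1, which other lists count as well. Called or not, 15 of the 22 markers had a positive difference and 7 a negative one. The median of the list was 0.17, and it turned to -0.11 without that library. 2 gut transcription factors, elt-7 having been chosen after its value was seen, differed in direction, with elt-7 at -0.89 (SE 0.15, limma adjusted p = 8.4e-04) and elt-2 at 0.87 (SE 0.22, limma adjusted p = 0.018). The call of elt-2 was lost without cantharidin 3 or 9. The mean level of the 22 markers, in log2 units from the control mean, was 0.21, 0.43 and -0.30 in cantharidin and 0.40, 0.29 and 0.81 in fluphenazine, and its part in the gut gene results was not tested. In whole worms fewer cells of a type and less RNA per cell cannot be told apart.

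Of 45 respiratory chain and ATP synthase genes 13 were lower and 0 higher, the same counts without fluphenazine 4, and 32 were not called. The share called lower was 28.9%, against 3.76% of all genes (8.03% without fluphenazine 4). The median of the list was -0.18, and 3 of its genes kept their call whichever of the 6 libraries was left out. nuo-4, a subunit gene of complex I, was at 177, 183 and 186 FPKM in cantharidin, 221, 211 and 216 in fluphenazine and 256, 236 and 250.3 in control, a difference of -0.25 (SE 0.05, limma adjusted p = 0.0038). cyc-1, cytochrome c1 of complex III, was at 298, 282 and 293 FPKM in cantharidin, 351, 357 and 339 in fluphenazine and 385, 375 and 407 in control (difference -0.26, SE 0.05, limma adjusted p = 0.0057). The call of cyc-1 was lost under median-of-ratios scaling, and 0 genes of the list were called with the spread of the 6 libraries alone (22 at an unadjusted p under 0.05 in the fit of all libraries). In both genes the cantharidin libraries were the lowest and the control libraries the highest.

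Outside the list of epidermal peptides, all neuropeptide genes called were lower in cantharidin. nlp-29 and nlp-34, counted in that list, were called higher and are described below. Of 31 FMRFamide-like peptide genes 8 were lower and 0 higher, and of 61 other neuropeptide-like genes 14 were lower and 0 higher. These are 25.8% and 23% lower, against 3.76% of all genes. Of them 3 and 7 kept the call whichever of the 6 libraries was left out. Without fluphenazine 4 the lower counts were 16 and 28, so that library moved them by more than 1.5 times. The share of all genes called lower also moved, from 3.76% to 8.03%. flp-8 was at 27.4, 32.6 and 21.5 FPKM in cantharidin, 112, 69.3 and 112 in fluphenazine and 15.2, 15.7 and 18 in control, a difference of -1.80 (SE 0.19, limma adjusted p = 1.0e-05). nlp-51 was at 27.5, 31.2 and 28.7 FPKM in cantharidin, 72.1, 72.3 and 68.7 in fluphenazine and 6.86, 9.95 and 10.7 in control (difference -1.26, SE 0.15, limma adjusted p = 3.1e-05). Both drugs held these genes above the control range and fluphenazine the higher. With the spread of the 6 libraries alone 1 gene of each list was called. General neuron markers such as synaptic vesicle and transmitter genes gave 0 calls among 24 (2 at an unadjusted p under 0.05, both lower), and 5 lower calls without fluphenazine 4. The mean level of these markers was 0.60 to 0.89 log2 above the control mean in cantharidin, and 1.00, 0.33 and 1.10 above it in fluphenazine 2, 4 and 9. Its part in the neuropeptide counts was not tested. Of 35 insulin-like peptide genes 5 were lower and 0 higher (6 and 0 without fluphenazine 4), 14.3% lower against 3.76% of all genes. ins-20 was at 9.62, 12.1 and 6.59 FPKM in cantharidin, 25.9, 23.1 and 33.7 in fluphenazine and 0.287, 0.208 and 0 in control, a difference of -1.47 (SE 0.25, limma adjusted p = 9.2e-04).

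Among genes with a family name, those higher in cantharidin were led by members of several families. cld-1 was at 21.3, 15.6 and 10.7 FPKM in cantharidin, 0.315, 0.160 and 0.5 in fluphenazine and 0.192, 0.390 and 0.624 in control, a difference of 3.63 (SE 0.21, limma adjusted p = 8.3e-09). dod-21 was at 22, 15.8 and 10.5 FPKM in cantharidin, 0.460, 0.162 and 0.506 in fluphenazine and 0.117, 0.281 and 0.404 in control, a difference of 3.59 (SE 0.21, limma adjusted p = 1.1e-08). The 2 genes had nearly the same level in each cantharidin library, and whether they share fragments was not tested. The arrestin domain gene arrd-8 was at 22, 7.42 and 18.4 FPKM in cantharidin, 0.569, 0.325 and 0.339 in fluphenazine and 0, 0.0566 and 0.228 in control (difference 3.47, SE 0.31, limma adjusted p = 1.8e-06). These genes stayed near the control level under fluphenazine, and in the 12 libraries of the other treatments cld-1 reached at most 0.594 FPKM, dod-21 0.600 and arrd-8 2.81. The arginine kinase gene argk-1 was at 62.5, 60.4 and 66.9 FPKM in cantharidin, 6.73, 2.68 and 7.89 in fluphenazine and 0.585, 0.381 and 3.82 in control, a difference of 3.34 (SE 0.51, limma adjusted p = 3.7e-04). The claudin-like gene clc-19 (3.36, SE 0.51) and srlf-34 (3.25, SE 0.42) were called at limma adjusted p of 4.0e-04 and 8.8e-05. parg-2, a poly(ADP-ribose) glycohydrolase gene, was at 11.5, 9.53 and 18.2 FPKM in cantharidin, 1.22, 0.496 and 1.08 in fluphenazine and 0.381, 0.517 and 5.94 in control (difference 2.84, SE 0.45, limma adjusted p = 6.0e-04).

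Among genes without a family name, F48C1.11 and F46F2.3 are given here, chosen after their values were seen. F48C1.11 was at 34.2, 30.5 and 23.3 FPKM in cantharidin, 0.277, 1.43 and 1.19 in fluphenazine and 0.459, 0.111 and 0.149 in control (difference 3.98, SE 0.28, limma adjusted p = 1.4e-07). F46F2.3 was at 285, 215 and 205 FPKM in cantharidin, 25.2, 4.67 and 15.9 in fluphenazine and 445, 529.8 and 182 in control (difference 4.10, SE 0.60, limma adjusted p = 2.8e-04). The first was high in cantharidin and low in the other 2 groups, and the second was low in fluphenazine and high in the other 2. 15 genes called higher are listed at 0 in all 3 fluphenazine libraries. One of them, ZK686.3, is listed at 0, 0 and 0 FPKM in fluphenazine, at 164, 154 and 175 in cantharidin and at 182, 184 and 186 in control. Zeros of this kind in abundant genes can be failed estimates of the upstream software, so no fold is given.

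**Figure D3:**
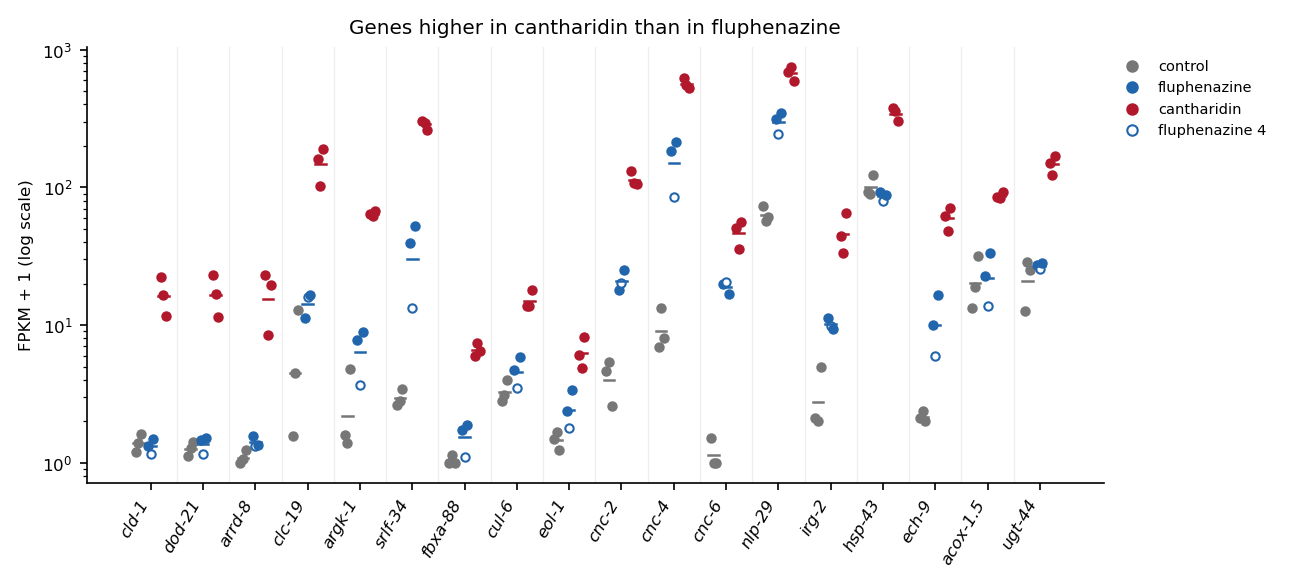
FPKM + 1 (log scale) of 18 genes higher in cantharidin than in fluphenazine, with 1 point a library and a bar at the mean of log2(FPKM + 1) of each group of 3. cld-1, dod-21 and arrd-8 are near the control level in fluphenazine, while cnc-2, cnc-4, cnc-6 and nlp-29 lie above the controls in both drugs and higher in cantharidin.

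Antimicrobial peptide genes of the epidermis were higher in cantharidin. These caenacin (cnc) and neuropeptide-like (nlp) genes answer wounding and fungal infection. Of 19 tested 11 were higher and 0 lower, 57.9% against 3.98% of all genes, with a median of 1.06. Without fluphenazine 4 there were 8 and 0, and 6 genes kept their call whichever of the 6 libraries was left out. cnc-2 was at 130.3, 106 and 103.99 FPKM in cantharidin, 17, 19.3 and 24 in fluphenazine and 3.60, 4.36 and 1.57 in control, a difference of 2.44 (SE 0.43, limma adjusted p = 0.0015). cnc-4 was at 619, 549.8 and 527 FPKM in cantharidin, 182, 84.3 and 212 in fluphenazine and 5.96, 12.3 and 7.05 in control, a difference of 1.92 (SE 0.37, limma adjusted p = 0.0030). nlp-29 was at 683, 749 and 587 FPKM in cantharidin, 313, 243 and 346 in fluphenazine and 72.1, 55.9 and 59.8 in control, a difference of 1.17 (SE 0.23, limma adjusted p = 0.0031). In these genes all libraries of both drugs lay above the highest control. cnc-6 was 1.30 higher (SE 0.19, limma adjusted p = 2.5e-04), a call lost at a pseudocount of 0.1. nlp-34 was at 1214, 1161 and 753 FPKM in cantharidin, 316, 228 and 379 in fluphenazine and 10.0, 9.11 and 31.9 in control (difference 1.76, SE 0.47, limma adjusted p = 0.029). The call of nlp-34 was lost without fluphenazine 4 (1.56, limma adjusted p = 0.058) and without fluphenazine 2, cantharidin 1 or cantharidin 3. cnc-1 was at 8.85, 9.32 and 10.1 FPKM in cantharidin and is listed at 0, 1.55 and 0 in fluphenazine and at 0 in the 3 controls. The cuticle collagens, which the same tissue makes, were 6 higher and 1 lower of 128 tested (5 and 3 without fluphenazine 4). Of these calls, 1 held whichever of the 6 libraries was left out. The median of the collagens was 0.14 and turned to -0.635 without fluphenazine 4. Their called share of 5.47% lay below the 7.74% of all genes.

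The list of the p38 immune pathway holds kinases that act upstream of such peptides as well as infection response genes. tir-1, the adaptor at the head of the p38 kinase cascade, was not called (0.57, SE 0.20, limma adjusted p = 0.11), at 42.2, 36.9 and 45.4 FPKM in cantharidin, 27, 22.6 and 34 in fluphenazine and 7.92, 7.53 and 8.05 in control. Nor was pmk-1, the p38 kinase gene itself (0.08, SE 0.17, limma adjusted p = 0.87). nsy-1, the kinase gene that acts after tir-1, was -0.60 (SE 0.13, limma adjusted p = 0.0068), and the transcription factor gene atf-7 was 0.32 (SE 0.08, limma adjusted p = 0.013). The call of atf-7 was lost without fluphenazine 2 or 9, without cantharidin 1 or 9 and under median-of-ratios scaling. irg-2, an infection response gene, was at 43.5, 32.2 and 63.6 FPKM in cantharidin, 10.2, 8.9 and 8.32 in fluphenazine and 1.13, 1.02 and 3.95 in control, a difference of 2.18 (SE 0.33, limma adjusted p = 4.2e-04). Of the 19 genes of the list 6 were higher and 1 lower (5 and 2 without fluphenazine 4), with 2 and 1 keeping the call whichever of the 6 libraries was left out. Their called share was 36.8%, against 7.74% of all genes.

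F-box genes of family A, which encode substrate adaptors of ubiquitin ligases, were higher in cantharidin in 35 of 139 tested and lower in 3. That is 27.3% called, against 7.74% of all genes, with a median of 0.32 that fell to 0.16 without fluphenazine 4. Without fluphenazine 4 there were 32 higher and 9 lower, and 27 higher calls held whichever of the 6 libraries was left out. fbxa-163 was at 11.3, 13.3 and 14.1 FPKM in cantharidin, 0.564, 0.286 and 0.597 in fluphenazine and 0, 0.149 and 0.201 in control, a difference of 3.23 (SE 0.21, limma adjusted p = 4.7e-08). fbxa-88 was at 5.0, 6.43 and 5.49 FPKM in cantharidin and 0.744, 0.0944 and 0.866 in fluphenazine, a difference of 2.11 (SE 0.19, limma adjusted p = 1.9e-06). fbxa-72 was at 14.9, 19.2 and 12.9 FPKM in cantharidin, 4.63, 1.63 and 4.48 in fluphenazine and 38.5, 48.2 and 57.7 in control (difference 1.93, SE 0.41, limma adjusted p = 0.0057). The level in cantharidin thus lay above the controls in fbxa-163 and below them in fbxa-72. Against control, 95 of the 139 were called higher in cantharidin and 1, fbxa-72, lower. Of all genes 31.9% were called higher and 5.96% lower in that comparison, whose counts moved with the scaling as given above. The family holds many close copies, and fragments shared between them were not examined.

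Part of the intracellular pathogen response, a set of genes raised by microsporidia and viruses, was higher as well. cul-6, a cullin of a ubiquitin ligase, was at 12.7, 12.7 and 16.9 FPKM in cantharidin, 3.72, 2.51 and 4.83 in fluphenazine and 1.81, 2.13 and 2.97 in control, a difference of 1.71 (SE 0.20, limma adjusted p = 3.3e-05). eol-1 (1.37, SE 0.22) and the F-box gene fbxa-158 (1.61, SE 0.32) were called at limma adjusted p of 6.4e-04 and 0.0035. These were the 3 called genes of 13 (3 higher and 1 lower without fluphenazine 4), all higher and each called whichever of the 6 libraries was left out. The called share was 23.1%, against 7.74% of all genes. Of 36 pals genes, the main reporters of the response, 3 were higher and 0 lower (2 and 0 without fluphenazine 4), 8.33% against 7.74% of all genes. pals-31 was at 15.7, 17.6 and 17 FPKM in cantharidin, 8.24, 5.96 and 12.8 in fluphenazine and 1.08, 1.15 and 0.842 in control (difference 0.89, SE 0.20, limma adjusted p = 0.010). pals-5, the usual reporter gene, was at 0.203, 0.387 and 0.247 FPKM in cantharidin and 0.212, 0 and 0.269 in fluphenazine and was not called (0.15, SE 0.16, limma adjusted p = 0.73).

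Other defence families were divided. Of the C-type lectin genes tested, which encode sugar-binding proteins, 16 were lower, 9 higher and 133 not called (30 lower and 8 higher without fluphenazine 4), 15.8% called against 7.74% of all genes. clec-82 was at 0.495, 0.568 and 0.483 FPKM in cantharidin, 13.8, 5.79 and 13.8 in fluphenazine and 0.284, 0.395 and 0.387 in control (difference -2.91, SE 0.24, limma adjusted p = 9.2e-07). clec-190 was at 8.82, 6.13 and 12.3 FPKM in cantharidin, 0.446, 0.637 and 0.106 in fluphenazine and 30.1, 29.6 and 8.99 in control (difference 2.83, SE 0.44, limma adjusted p = 5.2e-04). Of 37 lysozyme and saposin-like genes 6 were lower and 2 higher (8 and 3 without fluphenazine 4), 21.6% called against 7.74% of all genes. The lysozyme gene lys-7 was at 121, 132 and 83.9 FPKM in cantharidin, 632, 519 and 839 in fluphenazine and 93.0, 127 and 106 in control, a difference of -2.55 (SE 0.45, limma adjusted p = 0.0016). spp-23 was at 27.7, 29.3 and 25.3 FPKM in cantharidin, 4.03, 5.37 and 2.36 in fluphenazine and 77.7, 91.0 and 123.03 in control, a difference of 2.58 (SE 0.25, limma adjusted p = 5.4e-06). lys-7 was near the controls in cantharidin, whereas spp-23 was below them in both drugs. Outside the defence families, 16 of 188 nuclear hormone receptor genes were lower and 8 higher, 12.8% called against 7.74% of all genes. Without fluphenazine 4 there were 33 lower and 6 higher, where 15.9% of all genes were called. nhr-237 was at -2.01 (SE 0.23, limma adjusted p = 2.3e-05).

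**Figure D4:**
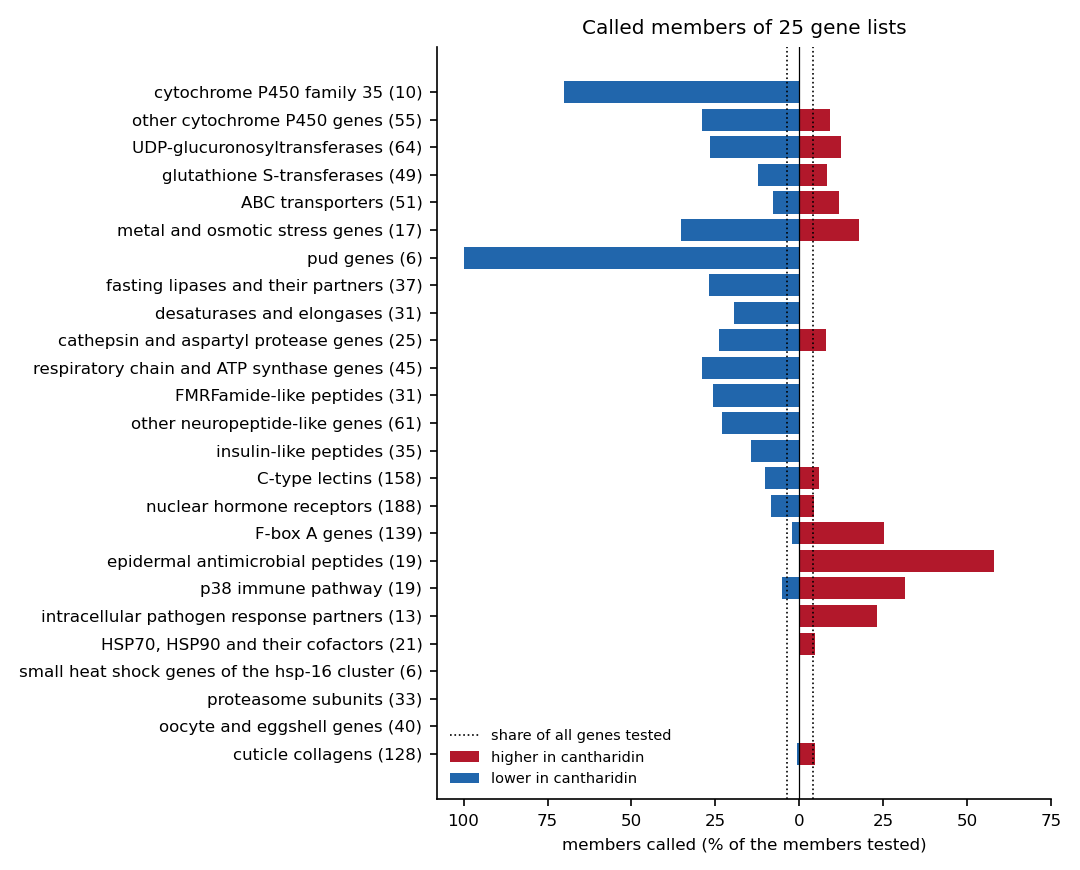
Share of the tested members of 25 gene lists called higher (red, to the right) or lower (blue, to the left) in cantharidin than in fluphenazine, in percent of the members tested, whose number stands in brackets. Dotted lines mark the shares of all genes tested, 3.98% higher and 3.76% lower; the pud and cyp-35 lists reach farthest to the left and the epidermal peptides farthest to the right.

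Lists of protein folding genes had called shares from 0% to 13.3%, on both sides of the 7.74% of all genes. The small heat shock gene hsp-43 was at 374, 355 and 301 FPKM in cantharidin, 91.5, 79.0 and 87.1 in fluphenazine and 91.9, 88.5 and 122 in control, a difference of 1.98 (SE 0.23, limma adjusted p = 2.8e-05). Fluphenazine was at the control level and all 3 cantharidin libraries were above it. Of the 6 listed hsp-16 IDs, the classical heat shock reporters, limma called 0 (0 at an unadjusted p under 0.05), with 1 lower call without fluphenazine 4. Of 33 proteasome subunit genes it called 0 (0 at an unadjusted p under 0.05, and 0 without fluphenazine 4), and of 8 chaperonin genes 0 (0 at an unadjusted p under 0.05, and 1 higher without fluphenazine 4). Of 21 HSP70, HSP90 and cofactor genes 1 was higher and 0 lower (2 and 0 without fluphenazine 4), 4.76% called. hsp-70 was at 2.45, 2.34 and 2.74 FPKM in cantharidin and 5.77, 1.06 and 3.06 in fluphenazine and was not called (-0.13, SE 0.35, limma adjusted p = 0.90). hsf-1, the heat shock factor gene, was not called (0.31, SE 0.17, limma adjusted p = 0.39) but was higher without fluphenazine 4 (0.54, limma adjusted p = 0.020). Of 35 endoplasmic reticulum folding genes 2 were higher (1 without fluphenazine 4), 5.71% called. The BiP chaperone gene hsp-4 was not among them (0.45, SE 0.17, limma adjusted p = 0.14). atfs-1, the factor of the mitochondrial unfolded protein response, was at 106, 98.5 and 107 FPKM in cantharidin, 51.5, 67.9 and 50.8 in fluphenazine and 63.4, 73.0 and 57.0 in control, a difference of 0.88 (SE 0.11, limma adjusted p = 4.7e-05). The mitochondrial chaperone genes hsp-6 (0.06, SE 0.10, limma adjusted p = 0.83) and hsp-60 (0.38, SE 0.14, limma adjusted p = 0.12) were not called. Of 15 mitochondrial stress genes 2 were higher and 0 lower (2 and 1 without fluphenazine 4). skn-1 was 0.41 higher (SE 0.10, limma adjusted p = 0.020), a call lost without fluphenazine 2 or 9, without cantharidin 1 or 9 and under median-of-ratios scaling. The autophagy receptor gene sqst-1 was not called (0.53, SE 0.17, limma adjusted p = 0.066), at 179, 151 and 194 FPKM in cantharidin, 136, 100.3 and 127 in fluphenazine and 16, 20.5 and 26.1 in control.

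Calls among transcripts of the known drug targets are set beside the 7.74% called of all genes (15.9% without fluphenazine 4). Of 21 PP1 and PP2A subunit genes 1 was higher and 0 lower (2 and 0 without fluphenazine 4), 4.76% called. This gene, pph-1, named after its value was seen, was 0.48 higher (SE 0.13, limma adjusted p = 0.038) and was not called without fluphenazine 4 (0.36, limma adjusted p = 0.08). gsp-1, a PP1 catalytic subunit, was at 189.9, 186 and 192 FPKM in cantharidin and 182, 211 and 191 in fluphenazine (-0.04, SE 0.06, limma adjusted p = 0.84). let-92, the PP2A catalytic subunit, was at 233.5, 208 and 242 FPKM in cantharidin and 187, 261 and 182 in fluphenazine (0.14, SE 0.12, limma adjusted p = 0.65). It was called higher without fluphenazine 4 (0.30, limma adjusted p = 0.049). Of 19 calmodulin and calcium signalling genes 1 was higher and 1 lower, with and without fluphenazine 4, 10.5% called. The calmodulin gene cmd-1 was at 280.0, 268 and 291 FPKM in cantharidin and 331, 304 and 336 in fluphenazine, a difference of -0.21 (SE 0.06, limma adjusted p = 0.047) that lay just inside the threshold. Its call was lost without any 1 of the 3 cantharidin libraries, fluphenazine 2 or fluphenazine 9, and under median-of-ratios scaling, quantile normalization and a pseudocount of 0.1. crh-1, the CREB factor gene downstream of calcium signals, was at 66.8, 59.4 and 57.8 FPKM in cantharidin, 40.5, 43.5 and 41 in fluphenazine and 34.1, 37.6 and 30.3 in control (difference 0.54, SE 0.09, limma adjusted p = 6.3e-04). Of 13 dopamine genes limma called 0 (0 at an unadjusted p under 0.05), and 1 higher without fluphenazine 4.

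The germline, yolk and cuticle lists showed where fluphenazine 4 departed from its group. Oocyte and eggshell genes lay, relative to the control mean in log2 units, at -0.35, -0.94 and -0.05 in cantharidin and at -1.39, 0.20 and -1.98 in fluphenazine 2, 4 and 9. Furrow and shape collagens lay at 2.99, 3.55 and 1.89 in cantharidin and at 4.23, 1.28 and 4.56 in fluphenazine. In both lists the 2 other fluphenazine libraries lay beyond the whole cantharidin range and fluphenazine 4 on its other side. With limma, 0 of 40 oocyte genes were called (0 at an unadjusted p under 0.05), with a median difference of 0.66, and 5 higher without fluphenazine 4, with a median of 1.30. Of 19 furrow collagens 0 were called (1 at an unadjusted p under 0.05, lower), also 0 without fluphenazine 4, where the median moved from -0.60 to -1.84. Vitellogenin genes, which encode yolk, and the yolk receptor gene lay on average at -3.55, -4.33 and -3.56 in cantharidin and at -3.75, -2.04 and -5.0 in fluphenazine. Limma called 0 of the 7 between the drugs (0 at an unadjusted p under 0.05). vit-2 was at 609, 344 and 685.97 FPKM in cantharidin, 689.5, 2203 and 386 in fluphenazine and 1939, 1806 and 1687 in control (difference -0.68, SE 1.32, limma adjusted p = 0.86). Fluphenazine 4 was the highest of these 9 libraries for vit-2, and the groups overlapped. Sperm genes gave 0 calls among 91 (1 at an unadjusted p under 0.05, higher) and 1 without fluphenazine 4. Muscle contractile genes, with 1 of 31 called (2 without fluphenazine 4), and cytosolic ribosomal protein genes, with 1 of 82 in both fits, lay on average within 0.48 log2 of the control mean in all 6 libraries. How far the library differences in these lists enter the other comparisons was not tested beyond leaving out each library.

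**Figure D5:**
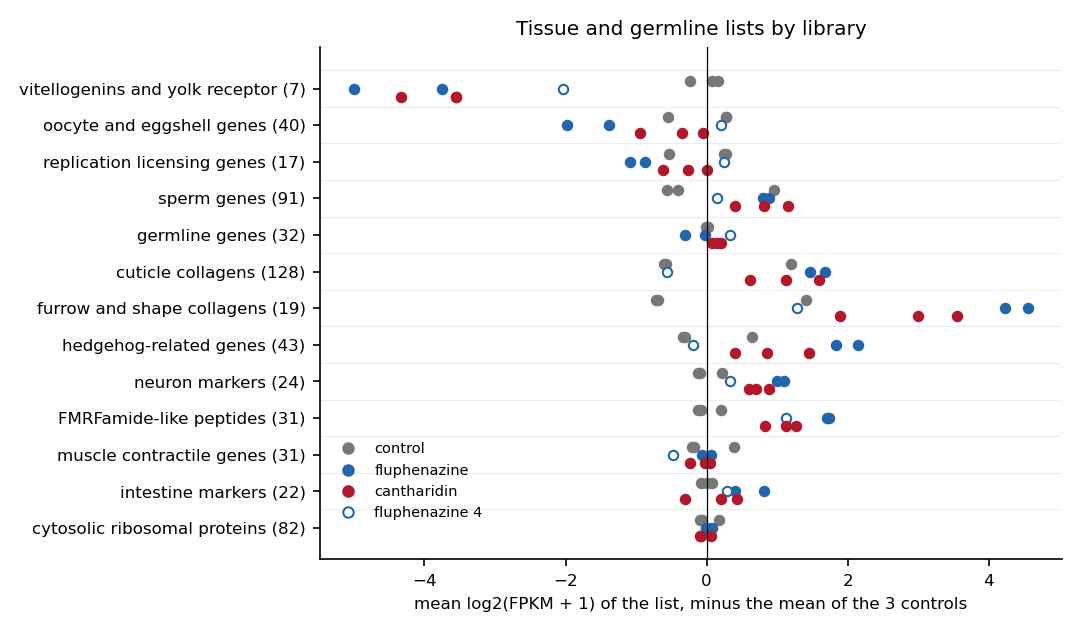
Mean log2(FPKM + 1) of 13 tissue and germline lists in each library, minus the mean of the 3 controls (x axis, log2 units), with 1 point a library and the number of tested genes in brackets. Fluphenazine 4 (open circle) lies apart from fluphenazine 2 and 9 in the oocyte and furrow collagen lists, where the cantharidin libraries lie between fluphenazine 4 and the other 2.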

How the data were processed

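Poly(A) RNA of whole worms was sequenced from stranded TruSeq libraries, per the labels' protocols. The authors deposited 1 table of FPKM for 21 libraries in 7 groups of 3, with no counts. The submitters' processing notes name CASAVA and Cufflinks, and their versions, the aligner and the genome build are not given in the sources used here. Total depth is unknown. Relative depth was estimated from the steps between low FPKM values.

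Genes with at least 1 FPKM in 3 or more libraries were tested on log2(FPKM + 1) with limma 3.58.1 in R 4.3.3, with 1 mean per group, the variance trend option and Benjamini-Hochberg adjustment over 17492 genes (14 residual degrees of freedom). All 21 libraries entered the fit and share 1 estimate of the spread. The procedure was tested on simulated data, in which no library stood apart from its group. The genes given a change were drawn only from those with a mean level above about 5 FPKM in the 6 libraries. Of 50 genes per step, 18% were recovered at a 1.5-fold change, 52% at 2-fold, 80% at 4-fold and 98% at 8-fold. Recovery at lower FPKM was not simulated. 10 unchanged genes were called. A gene that was not called may therefore still differ. Figures were drawn with matplotlib 3.10.9.

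Members and gene lists were chosen with earlier results of these data known, so list counts are descriptions. Named genes had a family name with a number (sequence names such as C01G12.5 were left out of the rule), were called with and without fluphenazine 4, did not overlap between the drugs and reached a mean of 5 FPKM in 1 of them. They are the 12 highest and 12 lowest differences among such genes, up to 4 and 2 members of each list, and reference genes given whether called or not. Other genes shown were chosen after their values were seen. Those are pck-1, icl-1, fat-1, elo-1, nuo-4, cyc-1, cnc-6, nlp-34, pud-4, elt-7, pph-1, the remaining cyp-35 genes and genes with sequence names. Alternatives changed the pseudocount, filter, scaling, weights, fit and libraries.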

Additional observations from a re-analysis of the deposited data

How the results depend on the processing

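Of 166 named genes called between the drugs, 0 changed direction under any alternative and 125 kept the call whichever of the 6 libraries was left out. Most were named only if called with and without fluphenazine 4 and not overlapping between the drugs. That choice favours both counts, so they do not stand for the other called genes. Of all 1354 called genes, 765 kept the call whichever of the 6 libraries was left out. Of the 166 calls, the fit of the 6 libraries alone, with 4 residual degrees of freedom, ended 81. Median-of-ratios scaling ended 13, a pseudocount of 0.1 12 and quantile normalization 6. The count of 1354 genes was 1169 at a pseudocount of 0.1, 1457 with no filter, 1175 with a filter of 5 FPKM, 1530 with quantile normalization and 1293 after median-of-ratios scaling. It became 374 (211 higher, 163 lower) in the fit of the 6 libraries alone, 1288 (555 and 733) in that fit without fluphenazine 4, and 292 (181 and 111) when tested against a 1.5-fold difference. With library weights it became 9835 (4816 and 5019), and the cause was not tested. Those weights were estimated gene by gene, a choice made after seeing that the default estimate did not converge. Over all 21 libraries the weights ran from 0.0621 for starvation 3 to 4.38 for cantharidin 1, with 0.0714 for fluphenazine 4. Leaving out 1 library gave 928 (without cantharidin 9) to 2776 genes (without fluphenazine 4), 519 to 1372 higher and 385 to 1404 lower. The lower count was 385 without cantharidin 9 and 407 without fluphenazine 2. Against control, weights gave 12750 genes for cantharidin and 14405 for fluphenazine, and the 1.5-fold test 1562 and 1729. Leaving out 1 library gave 4319 (without cantharidin 3) to 8187 for cantharidin, and 4560 (without fluphenazine 9) to 11010 for fluphenazine, with 4873 without fluphenazine 2.

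Some of the named genes that were not called changed sign. Library weights gave fat-7 0.24, gsp-2 0.01, gsp-1 0.05, pmk-1 -0.17 and gst-4 -0.03, and quantile normalization gave rpn-6.1 -0.01 and pmk-1 -0.01. Leaving out 1 library gave ranges of -0.09 to 0.02 for gsp-1, -0.03 to 0.33 for gst-4, -0.58 to 0.28 for hsp-70, -0.05 to 0.23 for paa-1, -0.09 to 0.21 for pmk-1, -0.12 to 0.18 for rpn-6.1 and -1.23 to 0.02 for vit-2. In the fit of the 2 groups alone without fluphenazine 4 the values were 0.02 for vit-2, 0.02 for gsp-1, -0.09 for pmk-1 and -0.03 for gst-4. No paired analysis was possible because the cantharidin and fluphenazine libraries share only the replicate number 9. With no counts deposited, genes of low FPKM have an error that depth sets and that is not known here.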
